A study of Mus musculus with 6 samples.

Results

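The genes described here are Myc and 34 genes of ribosome biogenesis, measured in activated CD4 T cells of miR-155 knockout (KO) and wild-type (WT) C57BL/6 mice. They were chosen by name, as all probe sets whose platform gene symbol is one of the 35, and 34 genes with 60 probe sets were found among the 12394 genes of the array, while Dkc1 was not analysed here. All 34 also passed the filter that left out the dimmest 25% of genes, so that 9295 genes in all were tested. The KO group is 3 arrays of cells that lack miR-155 and the WT group is 3 arrays of cells that have it. The series assigns each array to a separate mouse. In both groups the CD4 T cells came from spleen and lymph nodes, were isolated with beads, and spent 3 days in culture under stimulation through CD3 and CD28 (1 µg/mL of antibody) in the presence of 20 U/mL interleukin 2. The label does not say which part of the locus the knockout allele removes, and the age of the mice is not given in the sources used here. Values are RMA levels on the log2 scale as the authors deposited them, and every difference is KO minus WT.

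MiR-155 is a microRNA that activated lymphocytes make from the transcript Mir155hg. Its mature 5′ strand is shown because it is what the knockout cells lack, with the seed (bases 2 to 8), by which a microRNA pairs with its target transcripts, in capitals (RefSeq, GRCm38.p6, chr16:84714143-84714165, plus strand).
mmu-miR-155-5p: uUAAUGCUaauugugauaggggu

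A T cell that is activated through its receptor enlarges before it divides, and for this it makes ribosomes at a high rate. The transcription factor Myc is induced early in activation and binds, together with Max, to E-box sequences near genes for ribosome production. RNA polymerase I transcribes the long ribosomal RNA precursor in the nucleolus. Small nucleolar ribonucleoproteins (snoRNPs) of the box C/D and box H/ACA kinds then modify and fold it, and assembly factors cut and pack it into the small and large ribosomal subunits.

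RefSeq promoter windows, 250 bases before to 50 after a gene's start, were matched to 28 of the 34 genes. The 6 genes Myc, Npm1, Fbl, Rrp12, Bop1 and Rrs1 had no entry. The canonical E-box CACGTG, which reads the same on both strands, lay in 8 of the 28, or 28.6%, against 11.7% of the 7534 tested genes with a window and 7.15% of all 32851 windows. The ETS core CCGGAAG, searched on both strands and sharing no overlap with the E-box, lay in 10 of the 28, or 35.7%, against 20.1% and 8.86%. A gene was counted if any of its windows held the letters, while the shares of all windows count each window once. A match describes these letters only and is not a bound site. The 8 E-box stretches are shown because they are the letters that Myc and Max are known to bind, 5′ to 3′ on the gene's strand (GRCm38.p6), with the E-box in capitals.
Nop2 (chr6:125131811-125131840, plus): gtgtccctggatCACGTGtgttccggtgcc
Grwd1 (chr7:45830740-45830767, minus): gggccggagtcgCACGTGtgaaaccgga
Utp20 (chr10:88826765-88826789, minus): cggcactaactaCACGTGaggaaaa
Pes1 (chr11:3963965-3963994, plus): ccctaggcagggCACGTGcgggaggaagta
Mybbp1a (chr11:72441355-72441376, plus): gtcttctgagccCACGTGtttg
Tsr1 (chr11:74898092-74898121, plus): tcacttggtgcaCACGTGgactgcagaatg
Utp18 (chr11:93885769-93885798, minus): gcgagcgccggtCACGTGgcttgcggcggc
Wdr43 (chr17:71616220-71616249, plus): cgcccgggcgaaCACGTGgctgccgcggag

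Before the members, the arrays themselves were examined. Mir155hg measured 3.51, 3.89 and 4.45 in KO, against 7.69, 6.59 and 8.21 in WT, so each array lay on the side its label gives. Sex-linked transcripts differed by replicate number and not by genotype. Xist was at 13.35 and 13.08 on the KO and WT arrays of replicate 1, where the Y-linked Eif2s3y was at 3.50 and 3.44, and at 5.94 and 5.66 on those of replicate 2, where Eif2s3y was at 10.41 and 10.52. Both replicate 3 arrays were high in both, with Xist at 12.59 and 12.64 and Eif2s3y at 10.05 and 10.21, although the series assigns each array to 1 mouse. The T cell genes Cd3e, Cd3d, Cd3g, Cd2 and Cd28 measured between 9.86 and 13.43 on every array, and Cd4 between 8.83 and 9.25. Of the CD8 genes, Cd8a measured between 5.69 and 6.10 and Cd8b1 between 7.23 and 7.73. Some markers of NK and B cells were as bright as Cd4 or brighter. Nkg7 measured between 9.53 and 11.19, H2-Ab1 between 9.73 and 11.11, Cd74 between 8.71 and 10.07 and H2-Aa between 8.55 and 10.09. Others were dim, such as Ncr1 at 3.68 to 4.18 and Pax5 at 4.37 to 4.70. The source of the bright ones was not tested.

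Ribosome biogenesis genes had lower mean levels in KO cells, but the difference lay mostly in 1 array of each genotype. Of the 34 genes 33 had a lower mean in KO, where 50.8% of all tested genes did, and their median log2 difference was -0.52, against -0.00354 over all tested genes. A difference of -0.5 or lower was seen in 18 members, against 5.91% of all genes. No member had an adjusted p under 0.05 in limma's test over all 9295 genes, and neither did any other gene (0% called). At an unadjusted limma p under 0.05 there was 1 member, against 7.43% of all genes. The values of the 2 genotypes did not overlap in 1 member, against 12.8% of all genes. By both of these measures the members' share of 2.94% was below the background, but it rests on 1 member of 34 and the contrast was not tested. Over the probe sets the picture was alike, with 59 of 60 lower in KO and 1 higher.

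**Figure D1:**
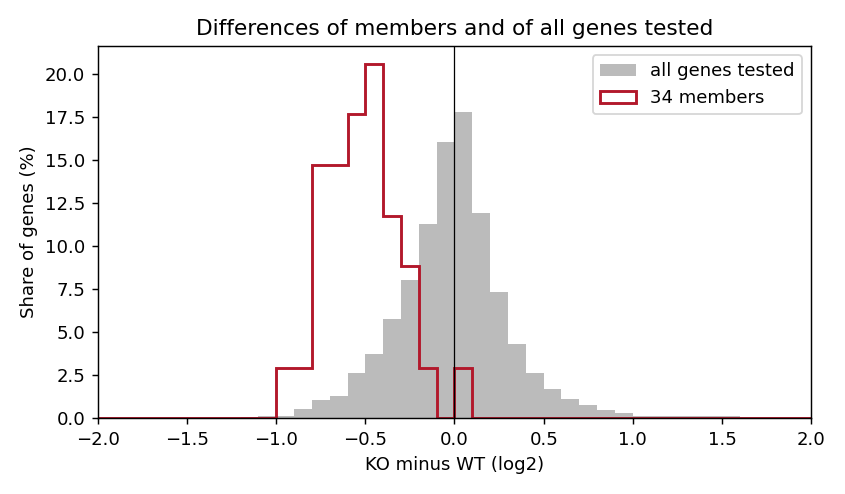
The share of genes (%) in each bin of the log2 difference, KO minus WT, for the 34 members (red line) and all 9295 genes tested (grey). The members centre on -0.52 and all genes on -0.00354, and the range shown leaves out genes beyond 2 log2 units.

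The arrays did not fall by genotype. KO replicate 1 was the lowest array in 27 members, against 30.2% of all genes, and WT replicate 1 was the highest in 32, against 23.4% of all genes. The mean deviation of the 34 members from their 6-array means was -0.76, 0.36 and -0.37 on KO replicates 1, 2 and 3 and 0.71, 0.40 and -0.34 on WT replicates 1, 2 and 3. KO replicate 2 thus stood beside WT replicate 2, and KO replicate 3 beside WT replicate 3. Within KO, replicate 2 lay above replicate 3 in 33 members, with a median gap of 0.80, and within WT, replicate 2 lay above replicate 3 in 33 members, with a median gap of 0.82. Over all genes replicate 2 was the higher in 46.5% for KO and 49.4% for WT. The members' range over the 6 arrays had a median of 1.57 log2 units, against 0.59 for all genes, and their median SD was 0.62 in KO and 0.57 in WT, against 0.20 and 0.18 for all genes.

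**Figure D2:**
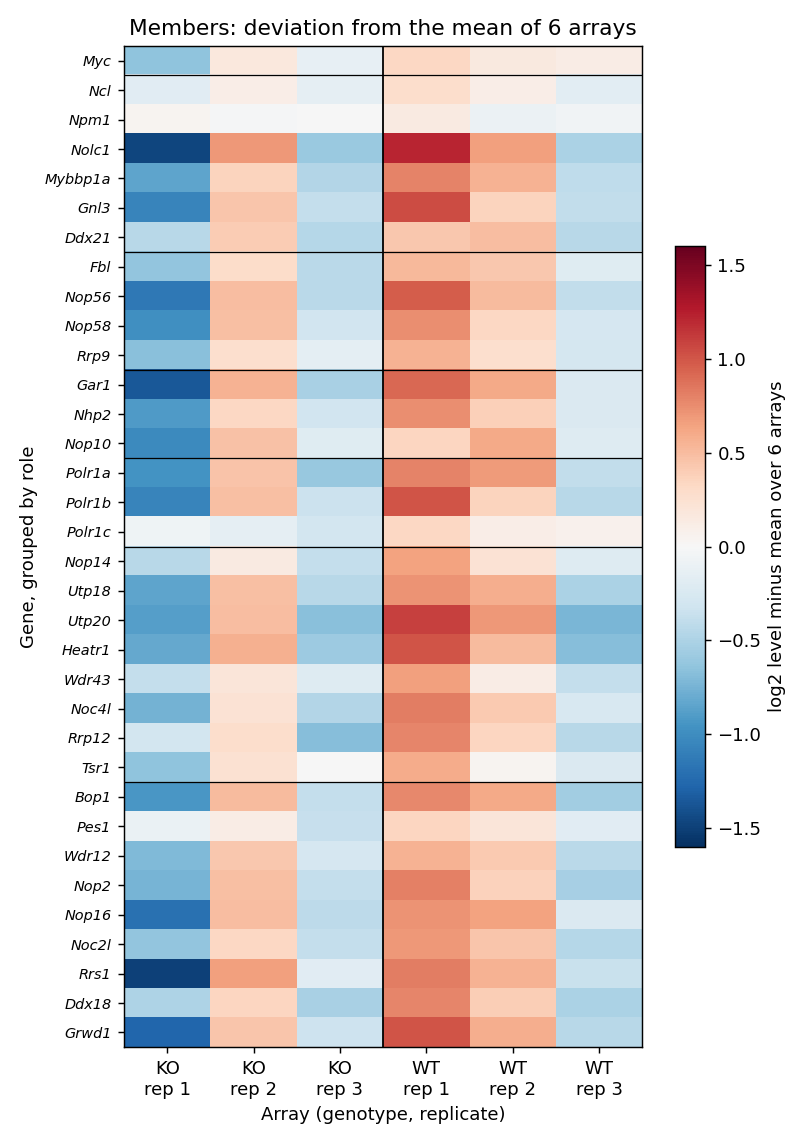
Heat map of the 34 members (rows, grouped by role) on the 3 KO and 3 WT arrays (columns). Colour gives the log2 level minus the gene's mean over the 6 arrays. KO replicate 1 is the lowest array in 27 rows and WT replicate 1 the highest in 32, and the replicate 3 columns of both genotypes are mostly blue.

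Each KO array was set against the WT array of the same number, which matched it in sex-linked transcripts. The number was not taken as a pairing. Deviations from the group means correlated across genes at -0.042 between the replicate 1 arrays, and at 0.64 and 0.40 in replicates 2 and 3. The KO array of replicate 1 lay well below the WT array of its number in most members. Those of replicates 2 and 3 lay close to theirs. In replicate 1 all 34 members were lower in KO, with a median difference of -1.56 and a range of -2.69 to -0.11, while 50.1% of all genes were lower. In replicate 2, 21 of 34 were lower, with a median of -0.054 and a range of -0.26 to 0.20, and 55.3% of all genes were lower. In replicate 3, 17 of 34 were lower, with a median of -0.00030 and a range of -0.35 to 0.23, and 52.9% of all genes were lower. Without both replicate 1 arrays, an alternative chosen after the data had been seen, 21 members were lower, the median difference was -0.031, and limma gave 0 members at an unadjusted p under 0.05 and 0 genes at an adjusted one. Without KO replicate 1 alone the median was -0.27 with 34 lower, and without WT replicate 1 alone it was -0.29 with 33 lower. Without KO replicate 2 it was -0.88, and without WT replicate 3 it was -0.81.

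**Figure D3:**
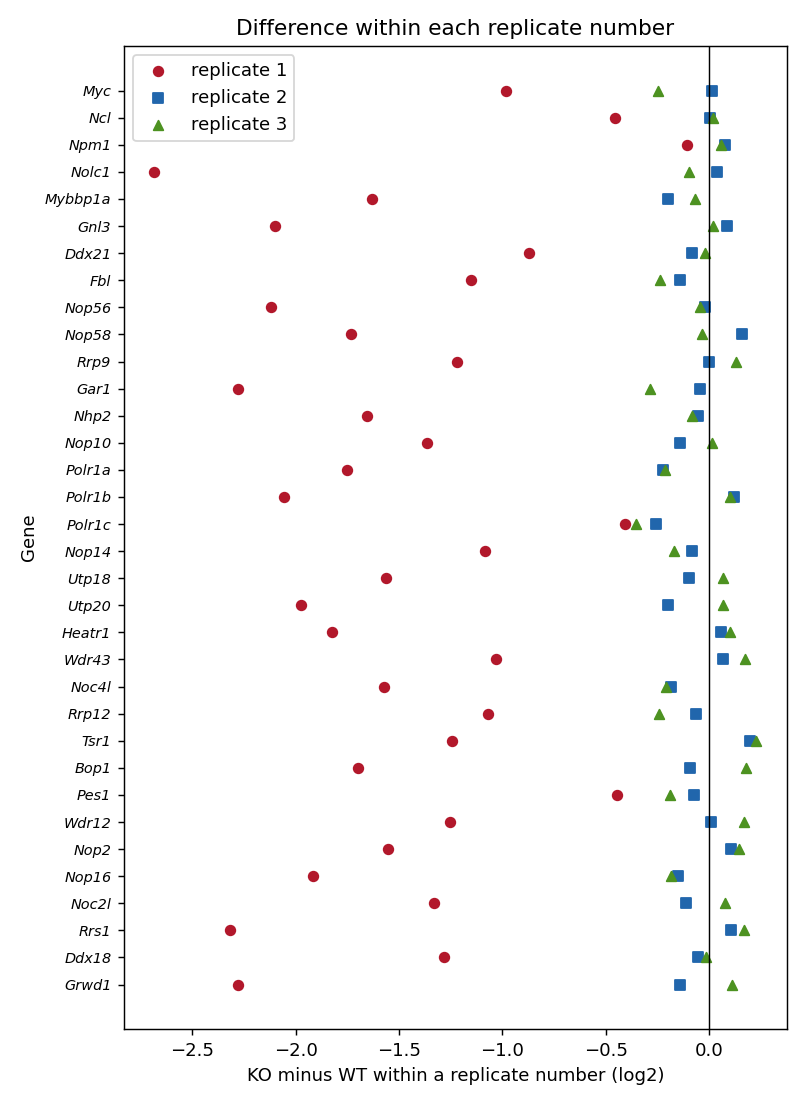
The log2 difference, KO minus WT, of each of the 34 members (rows) between the arrays of replicate 1 (circles), 2 (squares) and 3 (triangles). Replicate 1 differences run from -2.69 to -0.11, and those of replicates 2 and 3 lie between -0.35 and 0.23.

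Myc itself varied less than most of its companions here. Its single probe set read 10.02, 10.84 and 10.55 in KO cells, against 11.01, 10.82 and 10.79 in WT cells. The groups overlapped, since KO replicate 2 lay above WT replicates 2 and 3. The means were 10.47 ± 0.41 in KO and 10.87 ± 0.11 in WT (SD, n = 3 each), which gives a KO minus WT value of -0.40 ± 0.22 (SE), a level 1.32-fold lower in KO, with a limma adjusted p of 0.631 and an exact two-sided permutation p of 0.3, where 0.1 is the smallest that 3 against 3 arrays can give. Within replicate numbers the Myc difference was -0.98, 0.015 and -0.25. Without KO replicate 1 it was -0.18, and without both replicate 1 arrays -0.12.

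Nucleolar proteins with several roles included both the widest and the narrowest differences among the members. Nolc1, a chaperone of snoRNPs, measured 8.19, 10.35 and 9.06 in KO and 10.88, 10.31 and 9.15 in WT. Only the replicate 1 arrays stood apart by genotype, 2.69 log2 units from each other, and the difference of the means was -0.92 ± 0.64 (SE, limma adjusted p = 0.650). Mybbp1a, a nucleolar protein that takes part in ribosomal RNA processing, measured 9.59, 10.78 and 9.95 in KO and 11.22, 10.98 and 10.02 in WT, a difference of -0.63 ± 0.41. Its promoter window is among those with an E-box, shown above. Gnl3, the GTP-binding protein nucleostemin, measured 8.72, 10.22 and 9.40 in KO and 10.83, 10.13 and 9.39 in WT, and its groups overlapped in the same way. The RNA helicase gene Ddx21 differed by -0.32, and by -0.68 in its other probe set.

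Transcripts of the abundant nucleolar proteins nucleolin and nucleophosmin differed little on their brightest probe sets. RMA compresses differences of very bright genes, and its part here was not tested. Npm1 (nucleophosmin) measured 13.90, 13.83 and 13.86 in KO and 14.00, 13.76 and 13.80 in WT, a difference of 0.0091, and its other probe set differed by -0.092. Its range over the 6 arrays, 0.25 log2 units, was the smallest of the 34. Ncl (nucleolin) measured 12.95, 13.23 and 12.98 in KO and 13.40, 13.23 and 12.96 in WT, a difference of -0.14. The 4 Ncl probe sets did not give the same size of difference. Those with a mean level of 13.13, 11.72 and 9.99 differed by -0.14, -0.12 and -0.17, and the dimmest, at 8.13, by -0.59. That dimmest probe set measured 7.55, 8.43 and 7.53 in KO and 8.96, 8.46 and 7.86 in WT.

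**Figure D4:**
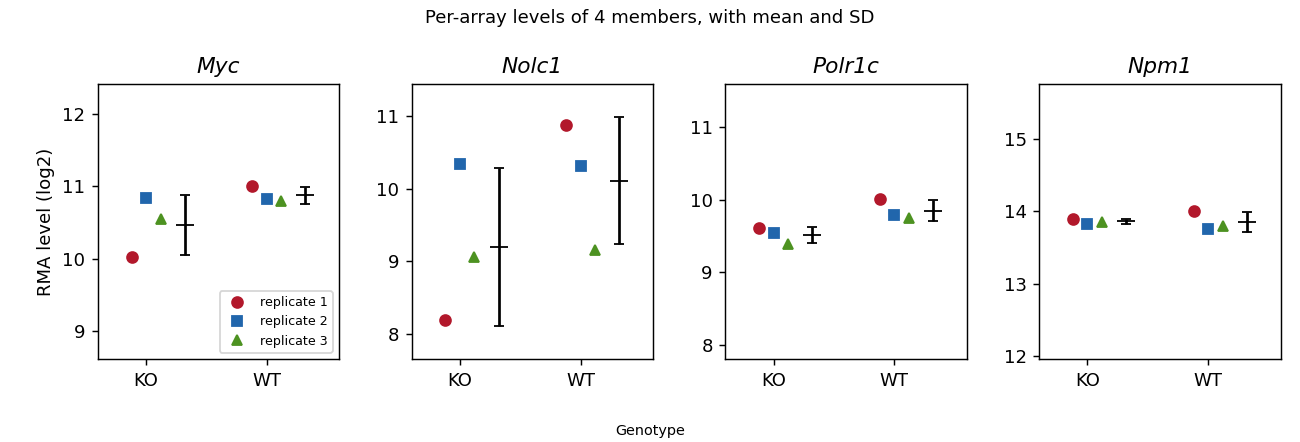
RMA level (log2) of Myc, Nolc1, Polr1c and Npm1 on each KO and WT array, with mean and SD (bars, n = 3) beside the points. All panels span the same number of log2 units. Nolc1 spans 2.69 units and Npm1 0.25, and only in Polr1c do the 3 KO arrays lie below all WT arrays.

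The box C/D snoRNP, which adds methyl groups to ribosomal RNA, is built on the methyltransferase fibrillarin (Fbl) with the scaffold proteins Nop56 and Nop58. Fbl measured 10.68, 11.60 and 10.88 in KO and 11.83, 11.74 and 11.12 in WT, a difference of -0.51 ± 0.30 (SE). Nop56 measured 9.77, 11.41 and 10.48 in KO and 11.89, 11.43 and 10.53 in WT, a difference of -0.73 ± 0.49. Nop58 measured 9.34, 10.81 and 10.02 in KO and 11.07, 10.65 and 10.05 in WT, a difference of -0.54 ± 0.41. In each of these genes the replicate 1 arrays were the extremes and the groups overlapped. Rrp9, a protein of the U3 snoRNP that guides early cleavage, measured 7.93, 8.87 and 8.44 in KO and 9.15, 8.87 and 8.31 in WT, where the replicate 2 difference was -0.0025. Its difference of -0.36 ± 0.30 was of a size with its error.

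The box H/ACA snoRNP, which converts uridine to pseudouridine in ribosomal RNA, was represented by Gar1, Nhp2 and Nop10. Gar1 measured 8.27, 10.19 and 9.11 in KO and 10.55, 10.23 and 9.40 in WT, a difference of -0.87 ± 0.52 (SE, limma adjusted p = 0.634). Every KO array lay below the WT array of its number, with differences of -2.28, -0.046 and -0.28. Nhp2 measured 10.07, 11.31 and 10.67 in KO and 11.73, 11.37 and 10.76 in WT, a difference of -0.60 ± 0.37. Nhp2 was also lower in KO in all 3 numbers, at -1.65, -0.053 and -0.083. So were Mybbp1a, Ddx21, Fbl, Nop56, Polr1a, Polr1c, Nop14, Noc4l, Rrp12, Pes1, Nop16 and Ddx18. The share of all genes lower in all 3 numbers was not counted, so this is not read as a trait of these members. Over all genes the median absolute gap was 0.13 in replicate 2 and 0.15 in replicate 3. Nop10 measured 10.33, 11.82 and 11.16 in KO and 11.69, 11.96 and 11.15 in WT, a difference of -0.50 ± 0.40. It was one of the 2 members whose highest array was WT replicate 2, the other being Ddx21.

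RNA polymerase I held the member whose genotypes did not overlap. Polr1c, a subunit shared with RNA polymerase III, measured 9.61, 9.53 and 9.39 in KO and 10.01, 9.79 and 9.74 in WT. Every KO array lay below every WT array, and the gap held in each replicate number, at -0.41, -0.26 and -0.35. The means were 9.51 ± 0.11 in KO and 9.85 ± 0.14 in WT (SD, n = 3 each), so KO minus WT was -0.34 ± 0.13 (SE), a level 1.27-fold lower in KO. The unadjusted limma p was 0.0351, the limma adjusted p 0.631 and the exact permutation p 0.1, so it did not pass the test. Its other probe set differed by -0.31, again without overlap. Without both replicate 1 arrays the Polr1c difference was -0.31, and with any 1 array left out it lay between -0.39 and -0.26.

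In the catalytic core subunits of the same enzyme the genotypes overlapped. Polr1a measured 6.63, 8.05 and 6.98 in KO and 8.38, 8.27 and 7.20 in WT, a difference of -0.73 ± 0.45 (SE). Its 2 other probe sets differed by -0.47 and -0.41. Like Polr1c, Polr1a was lower in KO in each replicate number, at -1.75, -0.22 and -0.21. Polr1b measured 5.30, 6.82 and 6.01 in KO and 7.35, 6.70 and 5.91 in WT, a difference of -0.61 ± 0.48. In Polr1b the KO arrays of replicates 2 and 3 lay above their WT counterparts, by 0.12 and 0.10. The promoter windows of Polr1c, the member without overlap, and of Nolc1, the member with the widest range, are shown for these 2 patterns (RefSeq, GRCm38.p6, 5′ to 3′). Capitals mark CCGGAAG or its reverse complement, and neither window holds CACGTG.
Polr1c (chr17:46247996-46248295, minus): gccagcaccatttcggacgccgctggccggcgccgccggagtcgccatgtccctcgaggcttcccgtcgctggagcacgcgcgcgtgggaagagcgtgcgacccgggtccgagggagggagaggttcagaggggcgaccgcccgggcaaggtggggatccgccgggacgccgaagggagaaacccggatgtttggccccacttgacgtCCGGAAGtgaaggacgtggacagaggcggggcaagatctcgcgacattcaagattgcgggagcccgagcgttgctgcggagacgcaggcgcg
Nolc1 (chr19:46075597-46075896, plus): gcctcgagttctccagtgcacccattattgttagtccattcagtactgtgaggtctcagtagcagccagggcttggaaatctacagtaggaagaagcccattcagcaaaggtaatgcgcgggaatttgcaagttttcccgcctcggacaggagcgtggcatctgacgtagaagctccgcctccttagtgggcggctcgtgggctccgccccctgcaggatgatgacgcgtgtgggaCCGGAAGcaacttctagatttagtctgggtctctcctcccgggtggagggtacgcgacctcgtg

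Many factors of small subunit assembly act while the precursor RNA is still being made, and others later. Noc4l measured 8.32, 9.31 and 8.61 in KO and 9.89, 9.50 and 8.82 in WT, a difference of -0.66 ± 0.35 (SE, limma adjusted p = 0.631), and its 2 other probe sets differed by -0.69 and -0.83. It was lower in KO in all 3 replicate numbers, with differences of -1.57, -0.19 and -0.21. Nop14 measured 8.34, 8.93 and 8.41 in KO and 9.43, 9.01 and 8.58 in WT, a difference of -0.45 ± 0.26. Utp20, with an E-box in its window, measured 7.08, 8.45 and 7.29 in KO and 9.05, 8.65 and 7.23 in WT, a difference of -0.70 ± 0.55. The groups overlapped in all 3 genes. The other members of this role, Utp18, Heatr1, Rrp12, Tsr1 and Wdr43, had differences from -0.56 in Heatr1 to -0.26 in Wdr43. Tsr1, a factor of late small subunit maturation, Wdr43 and Heatr1 were above WT in KO replicates 2 and 3. The gaps were 0.20 and 0.23 in Tsr1, 0.068 and 0.18 in Wdr43, and 0.056 and 0.10 in Heatr1.

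Among the 9 large subunit factors all means were lower in KO, and KO replicate 1 was the lowest array in 7, the exceptions being Pes1 and Ddx18. Nop16 measured 7.20, 8.89 and 7.98 in KO and 9.12, 9.04 and 8.16 in WT, a difference of -0.75 ± 0.46 (SE). Grwd1, a chaperone of a large subunit protein, measured 6.72, 8.43 and 7.66 in KO and 9.00, 8.57 and 7.55 in WT, a difference of -0.77 ± 0.52, and its 3 probe sets differed by -0.77, -0.83 and -0.69. Noc2l measured 8.28, 9.25 and 8.53 in KO and 9.61, 9.36 and 8.46 in WT, a difference of -0.46 ± 0.37. Each of these groups overlapped. Pes1, Bop1 and Wdr12 form the PeBoW complex, which is needed to make the large subunit. Their differences were -0.24, -0.54 and -0.36, with replicate 1 gaps of -0.45, -1.70 and -1.26, so that Pes1 stood nearer to Polr1c in the size of its replicate 1 gap than to its partners. Rrs1 had a replicate 1 gap of -2.32 and was above WT in KO replicates 2 and 3, by 0.10 and 0.17. Nop2, an RNA methyltransferase, and the helicase gene Ddx18 differed by -0.43 and -0.45.

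Other genes of the pathway, from lists chosen by function, had medians of the same sign and smaller size. In each list below 0 genes had an adjusted limma p under 0.05. Of 28 further small subunit genes 27 were lower in KO, with a median of -0.31. Utp3, Utp4 and Utp6 differed by -0.24, -0.24 and -0.32. Of 35 further large subunit genes 34 were lower, with a median of -0.33, and Mak16, Rpf1 and Rpf2 differed by -0.38, -0.34 and -0.71. All 8 genes of snoRNP assembly were lower, with a median of -0.39, and in this list the median did not shrink without KO replicate 1 (-0.43). Naf1, Ruvbl1 and Ruvbl2, which help to build snoRNPs, differed by -0.82, -0.70 and -0.50. Of 12 genes of the RNA exosome, which trims precursor ends, 11 were lower, with a median of -0.36. Of 13 further genes of RNA polymerase I transcription 11 were lower, with a median of -0.22. Polr1d, which pairs with the protein of Polr1c, differed by 0.0065, and Polr1e and Rrn3 differed by -0.56 and -0.34. Within replicates 2 and 3, 4 of these 5 lists had a larger share of genes lower in KO than the members' 21 and 17 of 34, a contrast that was not tested. The small subunit list was lower in 22 and 22 of 28 genes, with medians of -0.14 and -0.098, and the large subunit list in 22 and 22 of 35, with medians of -0.076 and -0.054. The exosome list was lower in 10 and 11 of 12, with medians of -0.095 and -0.072, and snoRNP assembly in 6 and 8 of 8, with medians of -0.29 and -0.24. The RNA polymerase I list was lower in 7 and 6 of 13, with medians of -0.034 and 0.026.

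Genes known to respond to Myc outside the ribosome pathway numbered 23, of which 21 were lower, with a median of -0.50. Within replicates 1, 2 and 3, 22, 20 and 19 of the 23 were lower, with medians of -0.92, -0.16 and -0.15. Without both replicate 1 arrays 20 were lower, with a median of -0.16. The contrast with the members was not tested. Cad, an enzyme of pyrimidine synthesis, measured 8.16, 9.34 and 8.39 in KO and 9.69, 9.58 and 9.08 in WT, a difference of -0.82 ± 0.33 (SE, limma adjusted p = 0.631), and Srm, the spermidine synthase, differed by -0.71. Odc1, the ornithine decarboxylase, went the other way at 0.22. The Myc network list, with partners and antagonists of Myc, did not follow, 5 of its 12 genes being lower, with a median of 0.15. Max, the partner of Myc, and its competitors Mxd1 and Mxd3 differed by 0.22, 0.41 and -0.22.

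Other gene lists also stood apart on KO replicate 1. The hypoxia list had a mean deviation of 1.20 on that array, against -0.50 to -0.092 on the other 5, and the heat shock and stress list 0.97, against -0.50 to 0.17. Within replicate 1, 1 of 11 hypoxia genes was lower in KO, with a median difference of 1.41. The sign turned in replicates 2 and 3, where 11 and 8 of the 11 were lower, with medians of -0.33 and -0.28. Of the 14 heat shock and stress genes 7 were lower in replicate 1, with a median of 0.10. In replicates 2 and 3, 8 and 10 of the 14 were lower, with medians of -0.040 and -0.14. Hspa1a measured 9.72 on KO replicate 1 and between 4.12 and 4.94 elsewhere, and Hspa1b 10.3 against 5.23 to 5.80. Dnajb1 was at its lowest there, 9.89 against 9.90 to 10.45. The hypoxia genes Vegfa, Slc2a1 and Bnip3 measured 9.40, 12.41 and 12.95 there, against 7.61 to 8.31, 10.84 to 11.87 and 11.98 to 12.49. The cell cycle list deviated by -0.90, 0.082 and -0.070 in KO and 0.34, 0.30 and 0.24 in WT, and all 26 of its genes had a lower mean in KO, with a median of -0.63 and 0 adjusted calls. Mki67, Top2a and Cdk1, genes of dividing cells, differed by -0.32, -0.37 and -0.77. Within replicates 1, 2 and 3, 26, 23 and 26 of the 26 cell cycle genes were lower in KO, with medians of -1.32, -0.26 and -0.32, where the members' medians in replicates 2 and 3 were -0.054 and -0.00030. The B cell gene Ms4a1 measured 6.39, 7.85 and 6.45 in KO and 8.02, 8.22 and 6.55 in WT, an order of arrays close to that of the members, but 6 of the 8 B cell markers tested had a higher mean in KO, with a median of 0.15. As a whole the 9 B cell markers on the array had mean levels of 7.36, 7.32 and 7.04 in KO and 7.50, 7.36 and 6.87 in WT. Over the CD4 T cell markers, 10 of 12 on the array, these means were 11.33, 11.23 and 11.45 in KO and 10.86, 11.18 and 11.31 in WT, lowest on WT replicate 1, where the members were highest. The CD8 markers, 6 of 6, had means of 6.68 to 6.73 in KO and 6.53 to 6.94 in WT. Those of NK cells (4 of 6) were at 5.90 to 6.25 in KO and 5.92 to 6.44 in WT, of macrophages and monocytes (8 of 9) at 4.96 to 5.01 in KO and 4.80 to 4.97 in WT, and of erythroid cells (5 of 7) at 5.07 to 5.40 in KO and 5.17 to 5.32 in WT. Of the 8 macrophage and monocyte markers 4 had a mean under 4.72, where the tested genes began, and of the other 4, 3 were higher in KO. The part of these lists in the members' differences was not tested. In bulk RNA, fewer cells of a type and less RNA per cell cannot be told apart.

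**Figure D5:**
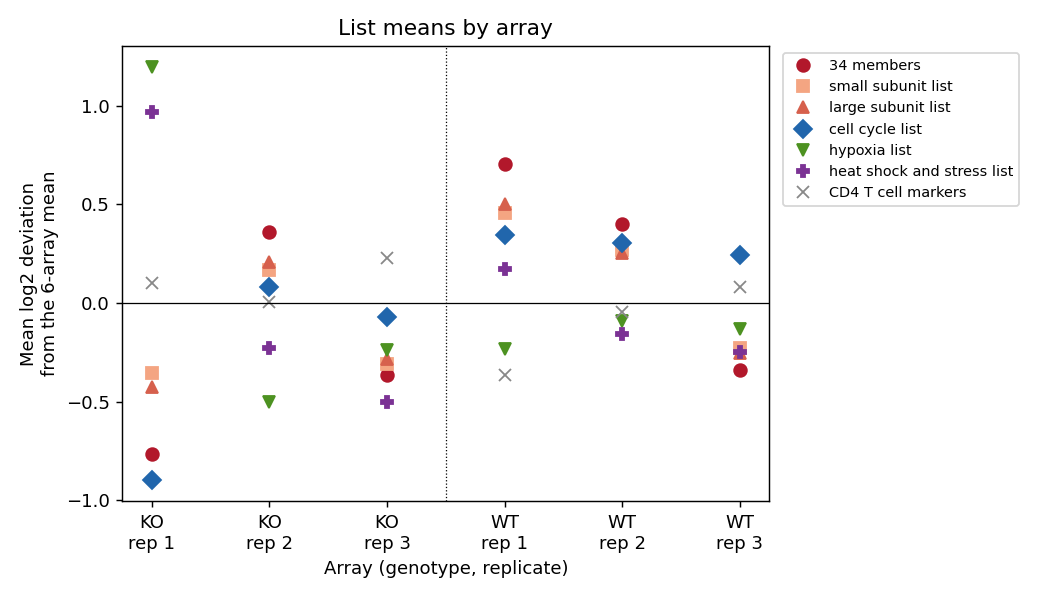
Mean log2 deviation from the 6-array mean of the 34 members and of 6 further gene lists (symbols) on each KO and WT array. The members and both subunit lists are at their lowest on KO replicate 1 and their highest on WT replicate 1, while the hypoxia list is at 1.20 on KO replicate 1 and below 0 on the other arrays.

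With limma's array weights the result depended on how the weights were estimated. By residual maximum likelihood, the default, KO replicate 3 and WT replicate 2 received weights of 5.55 and 5.05, and the other 4 arrays 0.27 to 0.58. The comparison then rested mostly on these 2 arrays, and 3581 genes, 26 of them members, had an adjusted p under 0.05. With the gene-by-gene estimate, added after the data had been seen, those 2 weights were 2.33 and 2.76 and the count was 0. These 2 arrays differ in replicate number as well as in genotype, and the members' mean deviation was -0.37 on that KO array and 0.40 on that WT array.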

How the data were processed

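The authors deposited log2 values. Per the submitters' processing notes these came from RMA in the affy package, and no version is stated. RMA subtracts background, gives the arrays a common distribution and summarises each probe set, which compresses differences of dim and of very bright genes. The table held 22690 probe sets on 6 arrays. GEO's platform annotation gave 20393 of them 1 gene symbol, 691 several and 1606 none. Only the first were named. Each gene was represented by its probe set with the highest mean, and the 3099 genes with the lowest means were left out. The genotypes were set against each other by lmFit and eBayes of limma 3.58.1 (R 4.3.3), two-sided, with p-values adjusted after Benjamini and Hochberg across 9295 genes, and statmod 1.5.0 served for array weights. SE is limma's moderated error. Medians and counts over members carry no test. The code was tested on simulated data. The number of arrays limits the precision, and no detection calls were used. The genes with values per array were Myc, every member of roles with 4 or fewer, and elsewhere the 3 with the smallest p. Of the other function lists described, the first 3 tested genes in written order were named. The cell type markers named did not all follow this rule. Ncl, Npm1, Pes1, Rrs1, Tsr1 and Ms4a1 were singled out after their values were seen, as were Nkg7, H2-Ab1, Cd74, H2-Aa, Ncr1 and Pax5. The members and lists were chosen with earlier results of these data known.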

Additional observations from a re-analysis of the deposited data

How the results depend on the processing

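With each array left out in turn, the count of members lower in KO lay between 33 and 34, their median difference between -0.88 and -0.27, the Myc difference between -0.59 and -0.18, the members at an unadjusted limma p under 0.05 between 0 and 14 (14 without KO replicate 2, 10 without WT replicate 3), and all genes at that p between 276 and 1540, against 691 with all arrays. No gene passed the adjusted test in any of these fits. Array weights gave 3581 genes adjusted and 4712 unadjusted, and 26 and 31 members, and the gene-by-gene weights 0 and 2131 genes, and 0 and 10 members. Without both replicate 1 arrays there were 277 genes and 0 members unadjusted and 21 members lower, with a members' median of -0.031. Without both replicate 3 arrays there were 445 genes and 0 members unadjusted and 34 members lower, with a members' median of -0.77. The fits without both arrays of a number and the gene-by-gene weights were chosen after seeing the data. With eBayes trend and robust settings 0 members were unadjusted. The cause of these shifts was not tested, beyond the smaller number of arrays.

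Without both replicate 1 arrays 12 members turned to higher in KO: Tsr1 at 0.21, Rrs1 at 0.14, Nop2 at 0.13, Wdr43 at 0.12, Polr1b at 0.11, Wdr12 at 0.087, Heatr1 at 0.079, Rrp9 at 0.064, Nop58 at 0.062, Gnl3 at 0.052, Bop1 at 0.042 and Ncl at 0.011. Npm1, at 0.0091 with all arrays, lay between -0.039 and 0.085 with 1 array left out, at -0.041 with the mean of its probe sets and at -0.015 without both replicate 3 arrays. Median centring, a further quantile normalization, no filter, a filter at 50% and the mean of all probe sets kept the members' median between -0.52 and -0.49.

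Same-numbered arrays matched in sex-linked transcripts, but the replicate number was not taken as a pairing, since the deviations from the group means correlated across genes at 0.64 and 0.40 in replicates 2 and 3 and at -0.042 in replicate 1, where the KO array correlated best with WT replicate 3. With the replicate block the members' median was -0.52, 1 member and 918 genes had an unadjusted limma p under 0.05, 0 genes passed adjusted, and Myc differed by -0.40.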
